A study of Mus musculus with 14 samples.

Results

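The 7 genes described here, of 36401 genes in the files, are Bcas1, Scin, Fer1l6, Spats2l, Mboat1, Tspan1 and Cd177. They were chosen because their transcripts were far more abundant in the ileum than in the jejunum, either in cells selected by LGR5 or over all populations, so their ileal excess is given below as a description and not as a test. All 7 were among the 14750 genes with enough counts to be tested. The libraries came from mouse small intestine, from ileum near the cecum or jejunum near the pylorus of C57Bl6 mice, labelled male and aged 6 to 12 weeks. Ileum and jejunum were each sampled as 3 populations: CD44+/CD24lo/CD166+ cells (CD166), LGR5 cells (LGR5) and crypt cells for which the labels name no marker (crypt). Each region had 2 CD166, 2 LGR5 and 3 crypt libraries, 14 in all, and no group carried a treatment or a stated mutation. The labels do not say how LGR5 cells were recognised, nor whether the libraries came from separate mice or pools, so p-values measure only the spread between these libraries.

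The small intestine changes along its length: the jejunum absorbs most sugars and fat, whereas the ileum takes up bile acids and meets more bacteria. At the base of the crypts, Lgr5-expressing stem cells lie between Paneth cells and give rise to absorptive enterocytes and to secretory goblet, Paneth, enteroendocrine and tuft cells. Goblet cells store mucins in granules that are released by calcium-dependent exocytosis, a process that needs the actin mesh to be cut and membranes to be fused. Levels are given in CPM, the expected count of a gene scaled to the normalised size of its library. Total expected counts ran from 6295828 to 20380369 per library. Since genes of different length were not scaled for length, levels are compared between libraries and not between genes.

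Of the 7 genes, 2 encode proteins of the actin and membrane machinery. Scin (ENSMUSG00000002565) encodes scinderin, a calcium-dependent actin-severing protein of the gelsolin family that acts in exocytosis. Fer1l6 (ENSMUSG00000037106) belongs to the ferlins, membrane proteins with C2 domains, some of which act in calcium-dependent membrane fusion. Bcas1 (ENSMUSG00000013523) is best known as a marker of young myelin-forming oligodendrocytes, and Spats2l (ENSMUSG00000038305) encodes a protein of stress granules and nucleoli in human cells. Mboat1 (ENSMUSG00000038732) encodes a membrane-bound acyltransferase that attaches fatty acids to lysophospholipids. The other two encode cell surface proteins: Tspan1 (ENSMUSG00000028699) a tetraspanin, and Cd177 (ENSMUSG00000052212) a lipid-anchored protein with Ly6/uPAR domains that is best known from neutrophils.

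RefSeq promoter sequences of the mouse build GRCm38.p6 matched 5 of the 7 genes; Bcas1 and Fer1l6 are only named. The 250 bases before the annotated start were searched on both strands for letters bound by intestinal position factors. These were TTTAT, which reads ATAAA on the other strand and is the core of sites for Cdx homeobox factors, and AGATAA, which reads TTATCT on the other strand and is a site for GATA factors. The 3 promoters with the Cdx letters are shown so that the letters can be seen in place; capitals mark them, and each line runs 5′ to 3′. All 5 genes were higher in ileal LGR5 cells, and the promoters of Mboat1 and Tspan1 held no Cdx letters. Cd177 is at chr7:24760312-24760561 on the minus strand, Scin at chr12:40134229-40134478 on the minus strand and Spats2l at chr1:57845321-57845570 on the plus strand.
Cd177: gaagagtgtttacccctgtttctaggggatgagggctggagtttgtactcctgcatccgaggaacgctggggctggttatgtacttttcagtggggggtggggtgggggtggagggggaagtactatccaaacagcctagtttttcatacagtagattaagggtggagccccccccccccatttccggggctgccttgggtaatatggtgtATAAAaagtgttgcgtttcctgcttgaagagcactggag
Scin: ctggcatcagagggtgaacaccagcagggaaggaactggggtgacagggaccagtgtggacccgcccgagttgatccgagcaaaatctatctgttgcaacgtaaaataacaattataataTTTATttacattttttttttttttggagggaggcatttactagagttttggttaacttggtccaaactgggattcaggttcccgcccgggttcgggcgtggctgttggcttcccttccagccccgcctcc
Spats2l: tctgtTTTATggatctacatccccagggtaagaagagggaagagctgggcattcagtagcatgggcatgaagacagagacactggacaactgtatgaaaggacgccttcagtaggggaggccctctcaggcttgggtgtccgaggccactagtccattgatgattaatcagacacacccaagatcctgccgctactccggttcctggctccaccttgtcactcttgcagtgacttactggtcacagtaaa
The first capital lies at -39 in Cd177, -130 in Scin and -245 in Spats2l, counted back from the start. The same letters occurred in 37.3% of 32851 promoters of this length. In Cd177 they overlap a TATA box (TATAAA, which reads TTTATA on the other strand), which 12.4% of promoters held. The GATA letters occurred in Tspan1, among 9.99% of promoters. The Mboat1 window held none of these motifs and was the richest of the 5 in G and C, at 73.2% against a median of 52.4% over all promoters.

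For 5 of the 14 libraries the nearest other library, by root mean square difference of log2 CPM over all tested genes, belonged to another group. The smallest difference of all pairs, 0.31, was that of jejunum crypt 1 to the library labelled ileum crypt 3, whose nearest ileal crypt library was at 0.62. Ileum CD166 1 and ileum LGR5 1 lay nearer to each other (0.41) than to their replicates (0.52 for ileum CD166 1, 0.45 for ileum LGR5 1). Jejunum crypt 2 lay nearest to ileum crypt 1 (0.90). In the library labelled ileum crypt 3, Slc10a2, the ileal bile acid transporter, was at 0.915 CPM. It was at 38.1 and 17.5 CPM in ileum crypt 1 and 2. Lct, the jejunal lactase gene, had 1237 CPM in the library labelled ileum crypt 3, against 112 and 40.0 CPM in ileum crypt 1 and 2. For all 7 genes the library labelled ileum crypt 3 stood close to jejunum crypt 1. Examples are 3.55 and 3.49 CPM of Mboat1 and 78.3 and 75.4 CPM of Tspan1. Sex-specific transcripts also went against the label male. Ileum crypt 1 and jejunum crypt 2 had 1675 and 1310 CPM of the female transcript Xist and none of the Y-linked Ddx3y, the other 4 crypt libraries had at most 3.11 CPM of Xist, and the 8 sorted libraries held both transcripts. Leaving out ileum crypt 1 or jejunum crypt 2 ended no call between populations given below for Cd177, Tspan1 or Scin.

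The sort markers bear on the names of the populations. Lgr5 averaged 193 ± 48.8 CPM in ileal and 91.4 ± 9.67 CPM in jejunal CD166 cells, 231 ± 153 and 194 ± 10.2 CPM in ileal and jejunal LGR5 cells (SD, n = 2 each), and 59.1 ± 20.5 and 25.0 ± 11.6 CPM in ileal and jejunal crypt cells (SD, n = 3 each). Alcam, the gene of CD166, lay between 38.4 and 50.3 CPM in CD166 cells, 41.8 and 50.6 CPM in LGR5 cells and 29.5 and 51.1 CPM in crypt cells, so its transcript did not set CD166 cells apart. Cd44 averaged 181 and 170 CPM in ileal and jejunal CD166 cells and 174 and 178 CPM in ileal and jejunal LGR5 cells, against 58.4 and 39.6 CPM in crypt cells. Cd24a, whose protein is low in CD166 cells by their label, averaged 903 and 1121 CPM in ileal and jejunal CD166 cells. It averaged 835 and 517 CPM in ileal and jejunal LGR5 cells, and 417 and 259 CPM in ileal and jejunal crypt cells. Its transcript was thus higher in CD166 than in crypt cells. The label describes protein, which RNA levels do not measure, so they cannot test it.

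In LGR5 cells all 7 genes were higher in both ileal libraries than in both jejunal ones. Bcas1 had 48.0 and 191 CPM in ileal LGR5 cells, against 7.11 and 4.52 CPM in jejunal LGR5 cells. Scin had 89.4 and 483 CPM in ileal LGR5 cells, against 24.5 and 10.7 CPM in jejunal ones. In both genes the ileal libraries were far apart from each other, yet the lower ileal library was still above both jejunal ones. Fer1l6 had 17.7 and 98.9 CPM in ileal and 5.25 and 2.70 CPM in jejunal LGR5 cells. Spats2l had 18.1 and 53.5 CPM in ileal and 3.54 and 2.03 CPM in jejunal LGR5 cells. Both repeated the pattern of Bcas1 and Scin, with ileum LGR5 2 well above ileum LGR5 1 and no overlap with the jejunum.

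The lipid enzyme and the surface protein genes behaved more evenly in LGR5 cells. Mboat1 had 29.9 and 37.1 CPM in ileal and 2.50 and 1.80 CPM in jejunal LGR5 cells. Tspan1 had 311 and 368 CPM in ileal and 49.2 and 43.6 CPM in jejunal LGR5 cells. Cd177 had 225 and 159.8 CPM in ileal and 26.6 and 24.7 CPM in jejunal LGR5 cells. For these 3 genes the libraries of a region lay close together and the regions far apart. Both ileal libraries lay above both jejunal ones for 7 of the 7 genes, where 27.5% of all tested genes did so with 2 libraries a side; the genes were chosen on this contrast, so nothing is read from the count.

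Log2 differences, ileum minus jejunum, put numbers on this. In LGR5 cells they were 4.37 ± 0.69 for Bcas1 (20.6-fold), 4.04 ± 0.70 for Scin (16.4-fold), 3.89 ± 0.70 for Fer1l6 (14.8-fold) and 3.68 ± 0.62 for Spats2l (12.8-fold), each with its SE from a model of all 14 libraries. The values were 3.96 ± 0.86 for Mboat1 (15.6-fold), 2.87 ± 0.54 for Tspan1 (7.32-fold) and 2.91 ± 0.55 for Cd177 (7.51-fold). By size they ranked between 72 and 276 among the 14750 tested genes. In that contrast 0.569% of genes were called higher in the ileum, where called means an adjusted p under 0.05 in edgeR's quasi-likelihood test. The median over the 7 genes was 3.89, against -0.01 over all tested genes.

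The values of Bcas1, Scin, Fer1l6 and Spats2l hang on ileum LGR5 2. Its level over that of ileum LGR5 1 was 3.97-fold for Bcas1, 5.41-fold for Scin, 5.59-fold for Fer1l6 and 2.97-fold for Spats2l, but 1.24-fold for Mboat1, 1.18-fold for Tspan1 and 0.71-fold for Cd177. Without ileum LGR5 2 the log2 differences were 3.04 for Bcas1, 2.35 for Scin, 2.15 for Fer1l6 and 2.68 for Spats2l. Without ileum LGR5 1 they were 5.04 for Bcas1, 4.79 for Scin, 4.65 for Fer1l6 and 4.26 for Spats2l. In ileum LGR5 2 the summed level of 16 goblet cell markers was also 2.89-fold that of ileum LGR5 1, the sum of 10 tuft cell markers was 3.20-fold, the sum of 12 stem cell genes was 0.488-fold and Lgr5 itself was 0.363-fold. The part of these other cell types in the 4 genes' levels was not tested. In bulk RNA such as this, fewer cells of a type and less RNA per cell cannot be told apart.

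**Figure D1:**
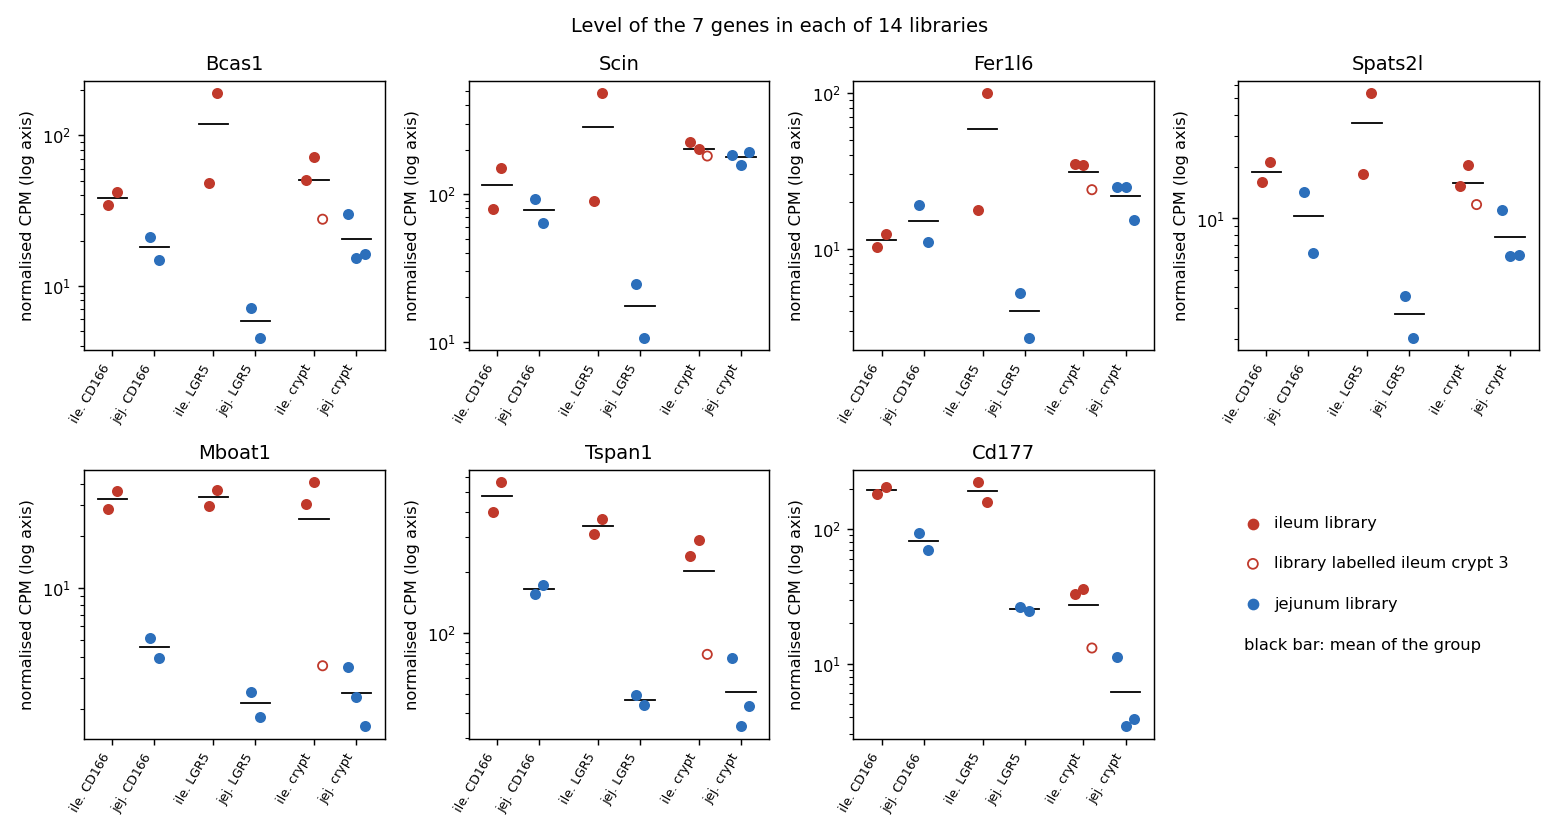
Level of each gene (normalised CPM, log axis) in CD166, LGR5 and crypt cells of ileum (red) and jejunum (blue); points are libraries, bars are group means, and the open point is the library labelled ileum crypt 3. Mboat1, Tspan1, Cd177 and Spats2l separate the regions in all 3 populations, by narrow gaps in crypt cells. Scin averages 286 CPM in ileal and 17.6 CPM in jejunal LGR5 cells but 203 and 178 CPM in ileal and jejunal crypt cells.

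In CD166 cells the genes parted. Mboat1 had 28.7 and 36.5 CPM in ileal and 5.10 and 3.95 CPM in jejunal CD166 cells. Tspan1 had 398 and 564 CPM in ileal and 156 and 174 CPM in jejunal ones. Cd177 had 183 and 206 CPM in ileal and 94.3 and 70.6 CPM in jejunal ones. These 3 genes kept the regions well apart. Bcas1 had 34.4 and 42.3 CPM in ileal and 21.1 and 14.9 CPM in jejunal CD166 cells. Spats2l had 16.2 and 21.2 CPM in ileal and 14.3 and 6.27 CPM in jejunal ones. Both had no overlap, but Spats2l by a narrow gap. Scin had 78.8 and 150.5 CPM in ileal and 92.1 and 64.0 CPM in jejunal CD166 cells. Fer1l6 had 10.3 and 12.5 CPM in ileal and 19.0 and 11.1 CPM in jejunal ones. For Scin and Fer1l6 the regions overlapped. Ileal libraries thus lay above jejunal ones without overlap for 5 of the 7 genes, where 17.7% of all tested genes did so. The choice of genes also used the excess over all populations, which includes CD166 libraries, so nothing is read from this count.

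The log2 differences in CD166 cells were 2.85 ± 0.80 for Mboat1, 1.55 ± 0.51 for Tspan1, 1.24 ± 0.52 for Cd177, 1.09 ± 0.60 for Bcas1, 0.87 ± 0.55 for Spats2l, 0.55 ± 0.61 for Scin and -0.40 ± 0.62 for Fer1l6. The direction for Fer1l6 turned to 0.04 without jejunum CD166 1, and that for Spats2l grew to 1.58 without the same library.

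In crypt cells the order was similar. Mboat1 had 30.7, 41.0 and 3.55 CPM in ileal and 3.49, 2.34 and 1.58 CPM in jejunal crypt cells. Tspan1 had 242, 289 and 78.3 CPM in ileal and 75.4, 34.3 and 43.5 CPM in jejunal ones. Cd177 had 32.9, 36.0 and 13.1 CPM in ileal and 11.3, 3.42 and 3.87 CPM in jejunal ones. In each the lowest ileal value came from the library labelled ileum crypt 3 and lay just above jejunum crypt 1. Bcas1 had 50.5, 72.3 and 27.7 CPM in ileal and 30.05, 15.4 and 16.3 CPM in jejunal crypt cells. Spats2l had 15.5, 20.4 and 12.1 CPM in ileal and 11.1, 6.02 and 6.13 CPM in jejunal ones. Their regions differed less, and those of Bcas1 overlapped. Scin had 227, 201 and 182 CPM in ileal and 184, 159 and 193 CPM in jejunal crypt cells. Fer1l6 had 35.1, 34.2 and 23.9 CPM in ileal and 24.7, 25.0 and 15.2 CPM in jejunal ones. For Scin and Fer1l6 too the regions overlapped, and Scin was at nearly the same level in all 6 libraries.

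Without overlap, 4 of the 7 genes were higher in ileal than in jejunal crypt cells, where 5.64% of all tested genes were. Without the library labelled ileum crypt 3 all 7 were, where 13.8% of all tested genes were. Crypt libraries too entered the choice of genes, so nothing is read from these counts. The log2 differences were 3.35 ± 0.69 for Mboat1, 2.11 ± 0.46 for Cd177, 1.99 ± 0.43 for Tspan1, 1.28 ± 0.49 for Bcas1, 1.04 ± 0.46 for Spats2l, 0.53 ± 0.51 for Fer1l6 and 0.19 ± 0.50 for Scin. Without that library they were 3.87 for Mboat1, 2.45 for Cd177, 2.37 for Tspan1, 1.57 for Bcas1, 1.21 for Spats2l, 0.68 for Fer1l6 and 0.26 for Scin. For Cd177 the value without jejunum crypt 1 was 2.88. In the equally weighted mean of the 3 populations, for which 5.01% of all tested genes were called in either direction, the differences ran from 1.34 for Fer1l6 to 3.39 for Mboat1 (10.5-fold). None of the 7 genes separated all 7 ileal from all 7 jejunal libraries, which 0.251% of tested genes did. Without the library labelled ileum crypt 3, Mboat1, Tspan1, Bcas1 and Spats2l did. Their lowest ileal and highest jejunal values were 28.7 and 5.10 CPM for Mboat1 and 242 and 174 CPM for Tspan1. They were 34.4 and 30.05 CPM for Bcas1 and 15.5 and 14.3 CPM for Spats2l. The share of all tested genes was not computed without that library, so nothing is read from this.

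**Figure D2:**
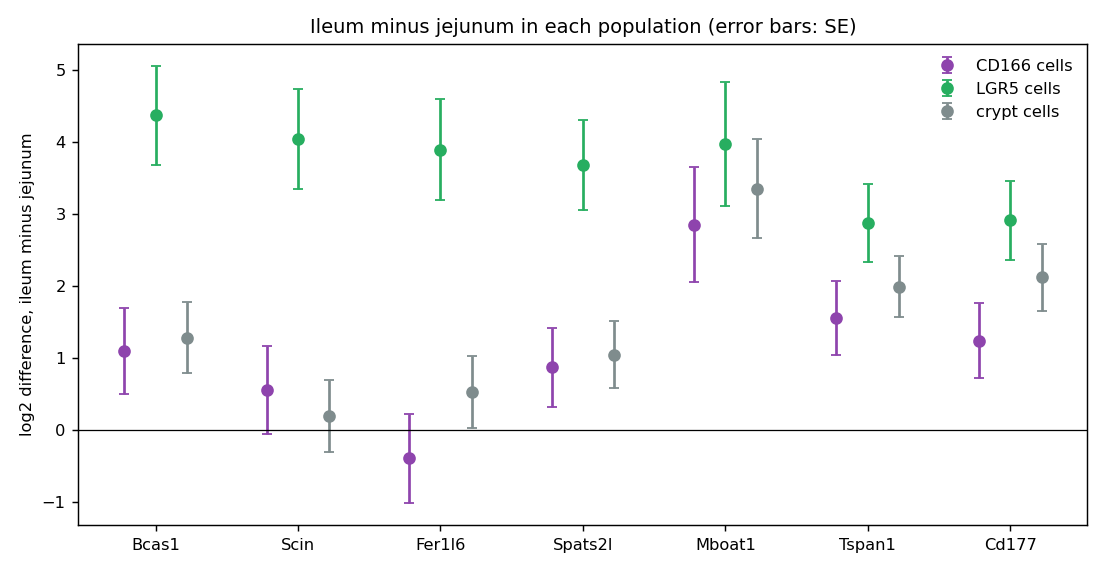
Log2 difference, ileum minus jejunum, of each gene in CD166 (purple), LGR5 (green) and crypt cells (grey), with SE bars from the model of all 14 libraries. Every gene has its largest value in LGR5 cells. The LGR5 values of Bcas1, Scin, Fer1l6 and Spats2l, from 3.68 to 4.37, stand farthest above their CD166 and crypt values. Mboat1 lies at 2.85 or more in each population.

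Whether the regional difference itself changed between CD166 and crypt cells, a contrast that does not use LGR5 cells, was tested for each gene. None of the 7 passed: edgeR's adjusted p was between 0.992 and 0.995, with the lowest estimates at -0.92 ± 0.80 log2 for Fer1l6 and -0.88 ± 0.68 log2 for Cd177. No gene at all (0% of those tested) was called there by edgeR, while 503 genes had an unadjusted p under 0.05, limma-voom called 0 and DESeq2 called 21. A difference of this size is therefore not shown, nor its absence. The ileal excess of all 7 genes was larger in LGR5 than in CD166 or crypt cells. This was not tested, since the genes were picked for their excess.

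The populations were compared as means over both regions, a comparison the choice of genes did not use. Cd177 was the gene that rose in both sorted populations, and Tspan1 rose in CD166 cells. Cd177 ranged from 70.6 to 206 CPM (median 139) in 4 CD166 libraries, from 24.7 to 225 CPM in 4 LGR5 libraries and from 3.42 to 36.0 CPM in 6 crypt libraries. Every CD166 library was above every crypt library, while the jejunal LGR5 libraries lay within the crypt range. Within regions the means were 195 CPM in ileal CD166 cells, 192 CPM in ileal LGR5 cells and 27.3 CPM in ileal crypt cells. In the jejunum they were 82.5 CPM in CD166, 25.6 CPM in LGR5 and 6.19 CPM in crypt cells. The sorted means were thus above the crypt mean in each region. The difference was 3.27 ± 0.35 log2 for CD166 minus crypt (9.67-fold, adjusted p = 0.000106) and 2.42 ± 0.34 for LGR5 minus crypt (5.36-fold, adjusted p = 0.000586) by edgeR's quasi-likelihood test. Leaving the library labelled ileum crypt 3 out gave 3.10 and 2.25, both still called.

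Tspan1 averaged 481 ± 117 CPM in ileal CD166 cells (SD, n = 2) and 203 ± 111 CPM in ileal crypt cells (SD, n = 3). In the jejunum it averaged 165 ± 12.6 CPM in CD166 cells (SD, n = 2) and 51.1 ± 21.6 CPM in crypt cells (SD, n = 3). Within each region every CD166 library was above every crypt library, though the jejunal CD166 libraries were below ileum crypt 1 and 2. Tspan1 rose by 1.47 ± 0.32 log2 in CD166 over crypt cells (2.76-fold, edgeR adjusted p = 0.00634), and by 1.27 without the library labelled ileum crypt 3. Its difference for LGR5 minus crypt was 0.30 ± 0.33 (edgeR adjusted p = 0.506).

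Scin moved the other way. It averaged 115 ± 50.7 CPM in ileal and 78.1 ± 19.9 CPM in jejunal CD166 cells, and 286 ± 279 CPM in ileal and 17.6 ± 9.76 CPM in jejunal LGR5 cells (SD, n = 2 each). In crypt cells it averaged 203 ± 22.6 CPM in the ileum and 178 ± 17.6 CPM in the jejunum (SD, n = 3 each). The jejunal LGR5 libraries were the lowest of all. The ileal LGR5 mean was above the ileal crypt mean only through ileum LGR5 2 (483 CPM). Ileum LGR5 1 (89.4 CPM) lay below every crypt library. Scin fell by 1.43 ± 0.42 log2 in LGR5 relative to crypt cells as a mean over the regions (edgeR adjusted p = 0.0246). That fall joins ileal libraries on either side of the crypt level with a jejunal mean below it. The value was -2.31 without ileum LGR5 2 (adjusted p = 0.00167). The call was lost without jejunum LGR5 2 (log2 -1.21, adjusted p = 0.106) and without the filter on low counts (adjusted p = 0.0558). It held without the library labelled ileum crypt 3 (log2 -1.47, adjusted p = 0.0363). In CD166 cells all 4 libraries were below all 6 crypt libraries, between 64.0 and 150.5 CPM against 159 to 227 CPM, and the difference was -1.01 ± 0.41 log2 (edgeR adjusted p = 0.0829).

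Across the 7 genes, 1 was called higher and 1 lower in LGR5 than in crypt cells, where 31.5% of all tested genes were called (13% higher and 18.5% lower). In CD166 cells edgeR called 2 higher and 0 lower relative to crypt cells, where 30.1% of all tested genes were called (13.6% higher and 16.5% lower). The median log2 difference of the 7 genes was 0.32 for CD166 minus crypt, against 0.02 over all tested genes, and -0.16 for LGR5 minus crypt, against -0.01. Both counts lay near the background. Without overlap, 1 gene was higher (Cd177; 10.4% of all tested genes) and 1 lower (Scin; 11%) in CD166 than in crypt cells, and 0 of 7 in LGR5 relative to crypt cells (22% in either direction).

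The genes not called kept estimates with wide errors. Fer1l6 differed by -0.98 ± 0.41 log2 between CD166 and crypt cells (edgeR adjusted p = 0.0932) and by -0.77 ± 0.42 between LGR5 and crypt cells (adjusted p = 0.177). The second became -1.67 without ileum LGR5 2 (adjusted p = 0.00586). The first, and the CD166 value of Scin, passed the threshold when either ileal LGR5 library was left out, at adjusted p-values from 0.0138 to 0.0164. DESeq2 also called both lower in CD166 than in crypt cells (adjusted p = 0.0264 for Scin and 0.0414 for Fer1l6), while limma-voom called neither. Bcas1, Spats2l and Mboat1 lay between -0.29 and 0.63 log2 in both comparisons with crypt cells. Between CD166 and LGR5 cells none of the 7 was called (edgeR), where 1.61% of tested genes were; Tspan1 was at 1.17 ± 0.36 log2 (adjusted p = 0.229) and Cd177 at 0.85 ± 0.37 (adjusted p = 0.501). Tspan1 passed there at the same 1.17 log2 (adjusted p = 0.0367) when the library labelled ileum crypt 3 was left out, and at 1.16 with DESeq2 (adjusted p = 0.0457).

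**Figure D3:**
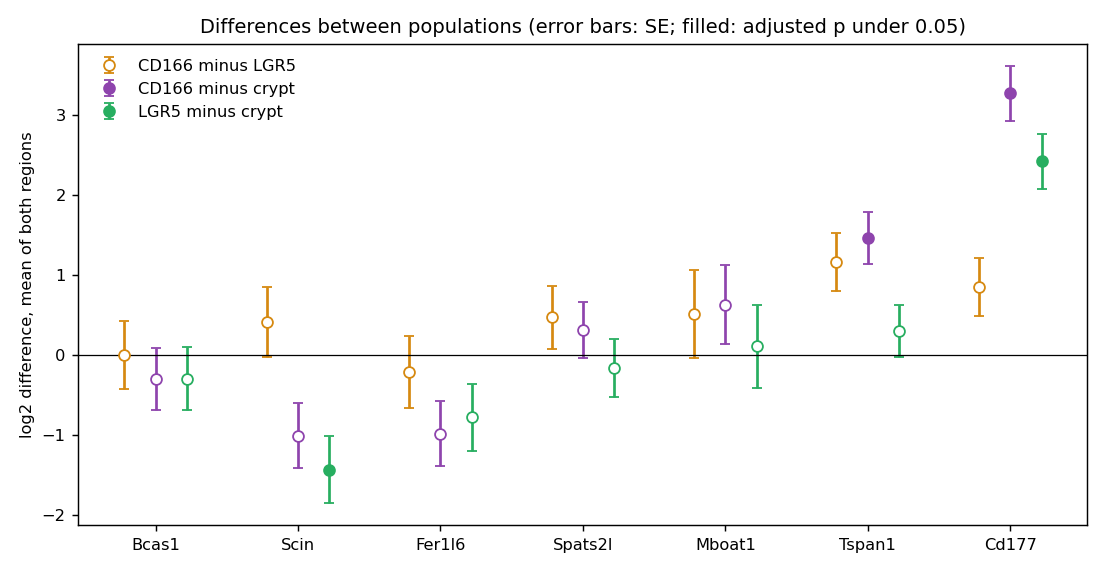
Log2 difference of each gene for CD166 minus LGR5 (orange), CD166 minus crypt (purple) and LGR5 minus crypt (green), as means over both regions with SE bars; filled points have an edgeR adjusted p under 0.05. The filled points are Cd177 in both comparisons with crypt cells, Tspan1 in CD166 minus crypt at 1.47 and Scin in LGR5 minus crypt at -1.43.

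Markers of other cell types were read beside the genes. The summed level of 16 goblet markers was 7747 and 14952 CPM in ileal and 10565 and 7238 CPM in jejunal CD166 cells, 9168 and 26449 CPM in ileal and 3748 and 2277 CPM in jejunal LGR5 cells, and 9686, 15335 and 9982 CPM in ileal and 9621, 7273 and 7433 CPM in jejunal crypt cells. The ileal mean was 5.91-fold the jejunal mean in LGR5 cells, 1.28-fold in CD166 cells and 1.44-fold in crypt cells. All 7 genes also had their largest ileal excess in LGR5 cells. They were chosen on this contrast, so nothing is read from the likeness. Of the 16 markers, 3 rose in ileal relative to jejunal LGR5 cells and 0 fell (median 2.66 log2): Clca3, a secreted goblet protein (4.92 ± 0.85), Creb3l1, a transcription factor of secretory cells (3.12 ± 0.57), and the protease gene Tpsg1 (3.59 ± 0.59). Over all populations 7 rose and 0 fell, among them Agr2, which folds mucins (1.74 ± 0.32), again Clca3 (2.34 ± 0.41) and Creb3l1 (1.60 ± 0.30), and Ern2, a stress sensor of mucus cells (1.48 ± 0.31). Leaving out 1 library at a time gave 0 to 9 markers called in LGR5 cells and 0 to 11 over all populations, or 6 and 11 if the library labelled ileum crypt 3 was left out. The part of goblet cells in the levels of the 7 genes was not tested.

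Of 8 Paneth cell genes, 4 rose in the ileum over all populations, among them the defensin genes Defa21 (4.29 ± 0.81) and Defa22 (4.35 ± 0.80), both uncertain since reads may be shared with near-identical copies, and the metalloprotease gene Mmp7 (1.82 ± 0.37). With 1 library left out 0 to 6 rose, with 5 without the library labelled ileum crypt 3 and 0 without either jejunal LGR5 or either jejunal CD166 library. None was called in LGR5 cells (edgeR). Of the 8, 7 were higher in ileal than in jejunal LGR5 cells (median 2.42 log2). The summed Paneth level was 1.41-fold higher in the ileal mean of LGR5 cells. Lyz1 and Defa24, with the highest mean levels of the list, differed there by 0.64 ± 0.60 and -0.20 ± 0.57 log2. None of the 10 tuft cell genes was called between regions by edgeR, and their sum was 273 and 874 CPM in ileal and 248 and 235 CPM in jejunal LGR5 cells. All 10 were higher in ileal LGR5 cells (median 1.37 log2), with a median of 0.065 without ileum LGR5 2. 

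Markers of secretory cells also moved between the populations, beside Cd177 and Tspan1. Relative to crypt cells, 9 of 10 tuft genes rose in CD166 and 5 in LGR5 cells and 0 fell, among them Dclk1, a kinase gene used as a tuft marker (2.04 ± 0.43 in CD166 cells), and Trpm5, a cation channel of taste-like signalling (2.27 ± 0.38 in CD166 and 1.43 ± 0.37 in LGR5 cells). With 1 library left out, 7 to 10 rose in CD166 and 0 to 7 in LGR5 cells, with 0 without ileum LGR5 2 or jejunum LGR5 2. Of 12 enteroendocrine genes 6 rose and 1 fell in CD166 cells, and 1 rose and 5 fell in LGR5 cells, where 1 to 6 fell with 1 library left out and 1 without ileum LGR5 1 or jejunum LGR5 2. Of 8 Paneth genes 3 rose and 0 fell in CD166 cells (1 to 7 rose with 1 library left out, 1 without the library labelled ileum crypt 3 and 7 without jejunum crypt 1), and 0 rose and 3 fell in LGR5 cells. The Paneth median for LGR5 minus crypt was -1.44 log2, and -1.63 to -0.82 with 1 library left out. Of 16 goblet genes 1 rose and 1 fell in CD166 cells, and as many in LGR5 cells. The goblet median for LGR5 minus crypt was -0.15 log2, and -0.68 to 0.13 with 1 library left out. The part of these cell types in the levels of Cd177 and Tspan1 was not tested. None of the 12 stem cell genes was called between regions by edgeR, while all 12 rose in both CD166 and LGR5 cells over crypt cells. For enterocyte genes all 10 fell in both sorted populations relative to crypt cells.

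Because Cd177 is a neutrophil surface protein, 12 neutrophil and myeloid genes were read beside it. Ly6g, Mpo and Elane, which define neutrophils or their precursors, were at 0 in all 14 libraries, and S100a8 was at most 0.367 CPM. Only 4 of the 12 had enough counts to be tested. The summed level ran from 32.1 to 38.5 CPM in ileal and 14.4 to 17.9 CPM in jejunal CD166 cells, 35.1 to 49.7 CPM in ileal and 13.3 to 15.4 CPM in jejunal LGR5 cells, and 20.7 to 49.8 CPM in ileal and 10.5 to 31.2 CPM in jejunal crypt cells. Most of it was Itgam, an integrin gene of myeloid cells, at 39.8 CPM on average in ileal and 10.3 CPM in jejunal LGR5 cells. Itgam rose by 1.49 ± 0.29 log2 over all populations (edgeR adjusted p = 0.0167). It was the only 1 of the 4 tested genes above 0 there (median -0.14 log2). In LGR5 cells 2 of the 4 were higher in the ileum (median -0.26 log2). Relative to crypt cells 0 of the 4 were called higher in CD166 or LGR5 cells. Csf3r was called lower in LGR5 cells, but not without the library labelled ileum crypt 3.

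**Figure D4:**
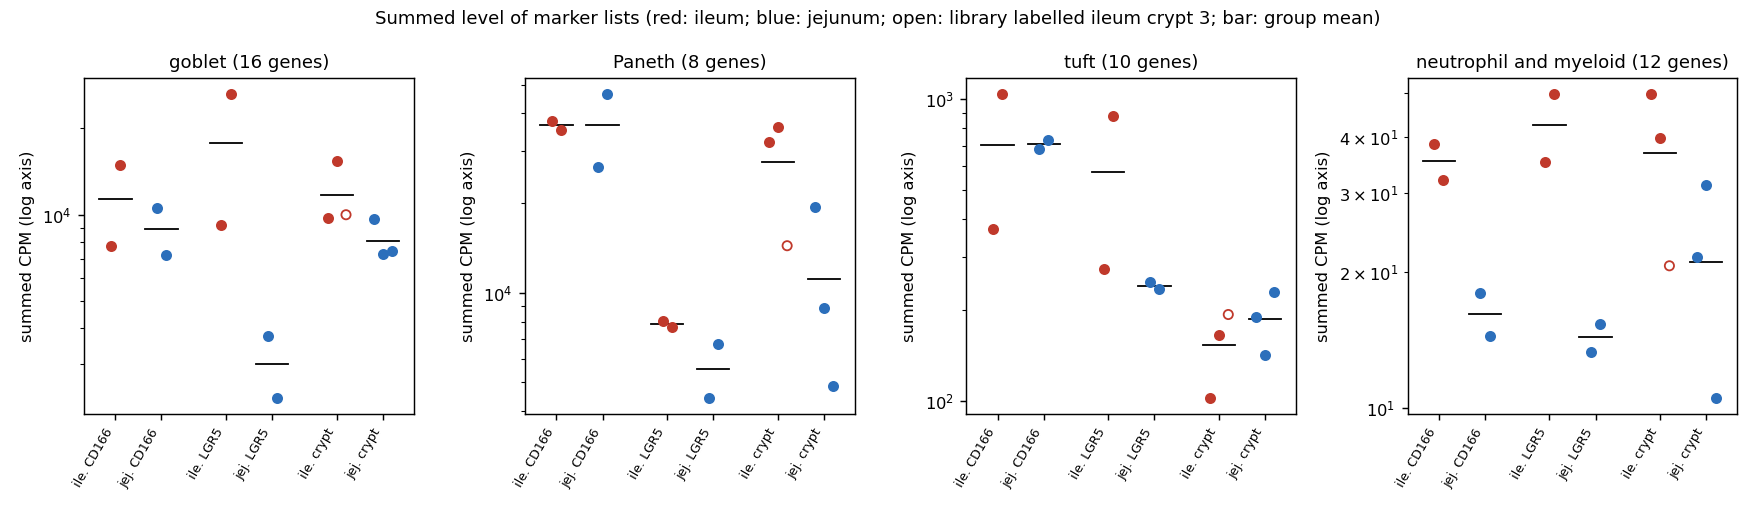
Summed level (CPM, log axis) of goblet, Paneth, tuft, and neutrophil and myeloid marker lists in CD166, LGR5 and crypt cells of ileum (red) and jejunum (blue); points are libraries, bars group means, the open point the library labelled ileum crypt 3. Goblet and tuft sums are highest among LGR5 libraries in ileum LGR5 2, at 26449 and 874 CPM.

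Relatives of the 7 genes were counted from lists of their families, the genes themselves left out. Regulated exocytosis, the process of Scin, had 20 genes, of which 6 rose in the ileum over all populations and 0 fell, where 2.99% of all tested genes rose and 2.02% fell (median 0.52 log2). Among them were Anxa2, an annexin of membrane fusion (0.90 ± 0.13), Rab3d, a granule GTPase (0.97 ± 0.23), and Sytl2 and Syt7, granule tethering and calcium-sensing proteins (1.66 ± 0.38 and 1.57 ± 0.34). In LGR5 cells 2 rose, Anxa2 (1.76 ± 0.23) and Syt7 (3.49 ± 0.68). Leaving out 1 library at a time gave 1 to 9 over all populations and 0 to 6 in LGR5 cells, where the calls of Anxa2 and Syt7 held in 9 and 5 of 14 such fits. Relative to crypt cells, 3 rose and 6 fell in CD166 cells and 3 rose and 8 fell in LGR5 cells (0 to 5 rose in each, and 5 to 7 and 4 to 8 fell, with 1 library left out), Anxa2 falling by 1.67 and 2.10 log2.

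In the gelsolin family 1 of 7 relatives of Scin rose in the ileum over all populations, Gsn itself (1.76 ± 0.33, edgeR adjusted p = 0.0143). Relative to crypt cells 0 rose and 3 fell in LGR5 cells. These were Vil1, the villin of the brush border (-1.49 ± 0.21), Capg (-2.27 ± 0.45) and Vill (-2.10 ± 0.57). In CD166 cells 1 fell, again Vil1 (-1.50 ± 0.21), and 1 rose, Avil (2.26 ± 0.44). Of 5 other ferlins only 2 had enough counts, and Myof rose (1.42 ± 0.33, edgeR adjusted p = 0.0311); in LGR5 cells its difference was 3.08 ± 0.64 (adjusted p = 0.0546). Among 9 other membrane-bound acyltransferases, relatives of Mboat1, 0 rose and 1 fell, Dgat1, which makes triglyceride (-1.10 ± 0.15 over all populations and -1.52 ± 0.28 in LGR5 cells). Its call held in 14 of 14 fits with 1 library left out over all populations and in 4 in LGR5 cells. Of 16 genes of lysophospholipid acylation 1 rose, Agpat4 (1.07 ± 0.28, edgeR adjusted p = 0.0494), a call held in 3 of 14 fits with 1 library left out. Among 25 tested tetraspanins 2 rose, Cd9 (1.17 ± 0.26) and Upk1b (1.20 ± 0.28). Relative to crypt cells 5 tetraspanins rose and 8 fell in CD166 cells, and 3 rose and 10 fell in LGR5 cells. Tspan3 and Cd82 fell in both (-0.47 ± 0.12 and -1.08 ± 0.16 in CD166 cells, -0.58 ± 0.12 and -1.13 ± 0.16 in LGR5 cells), and so did Tspan15 (-0.56 ± 0.15 and -0.61 ± 0.15). Cd9, a widespread cell surface tetraspanin, rose in both (1.36 ± 0.30 in CD166 and 1.03 ± 0.30 in LGR5 cells). Among 8 tested genes with Ly6 or uPAR domains 1 rose, Plaur, the urokinase receptor gene (2.20 ± 0.46), and 1 fell, Cd59a, an inhibitor of complement (-1.79 ± 0.39); none was called higher (edgeR) in CD166 or LGR5 cells than in crypt cells. Of these calls over all populations, those of Myof, Cd9 and Upk1b held in 5, 5 and 3 of the 14 fits with 1 library left out, and those of Plaur and Cd59a in 7 each.

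The profiles of the 7 genes were set against each other and against every tested gene with a mean of at least 1 log2 CPM. The measure was the root mean square difference of log2(CPM + 1) over the 14 libraries after each gene's own mean was taken off, so a low value means a like profile. All points share the libraries and their depths. Cd177 and Scin were the least alike of the 7 (2.31). Bcas1 and Spats2l were most alike (0.35), then Scin and Fer1l6 (0.50) and Mboat1 and Tspan1 (0.62). In each of these pairs genes outside the 7 lay nearer. They numbered 2 for Bcas1 and 5 for Spats2l, 1 each for Scin and Fer1l6, 12 for Mboat1 and 39 for Tspan1. Closer to Spats2l than Scin lay 502 such genes. The largest number was 12860, which lay closer to Scin than Cd177 did. The profiles hold the ileal excess that the genes were chosen for, so nothing is read from their likeness. For scale, a gene's own profile departed from its mean by 1.03 for Spats2l to 1.86 for Cd177.

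Outside the 7, the nearest to Bcas1 were Kcnk6 (0.31), a potassium channel gene, Tpsg1 (0.32) and Lrrc26 (0.42), a subunit of potassium channels, and the same genes were nearest to Spats2l (0.26, 0.23 and 0.25). Nearest to Scin were Clca3 (0.50), Capn9 (0.57), a calpain of the gut, and Ptprr (0.62), and nearest to Fer1l6 were Capn9 (0.39), Liph (0.51), a lipase, and Ptprr (0.52). Clca3, Capn9 and Tpsg1 are on the goblet list above. Mboat1 had other neighbours, among them Scd2 (0.45), a fatty acid desaturase, and Hoxb5 (0.52), a position gene. Scd2 differed between regions by 2.36 log2 in CD166, 3.07 in LGR5 and 2.25 in crypt cells. Hoxb5 differed by 5.14, 6.17 and 4.12 in the same order. Both were highest in LGR5 cells, by less than Bcas1 (1.09, 4.37 and 1.28). Nearest to Tspan1 were O3far1 (0.32), a fatty acid receptor, Ckap4 (0.34) and A4gnt (0.39), which adds a sugar to gastric-type mucin. The neighbours of Cd177 were farther off: Stox2 (0.72), A4gnt (0.74) and Prox1 (0.75).

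**Figure D5:**
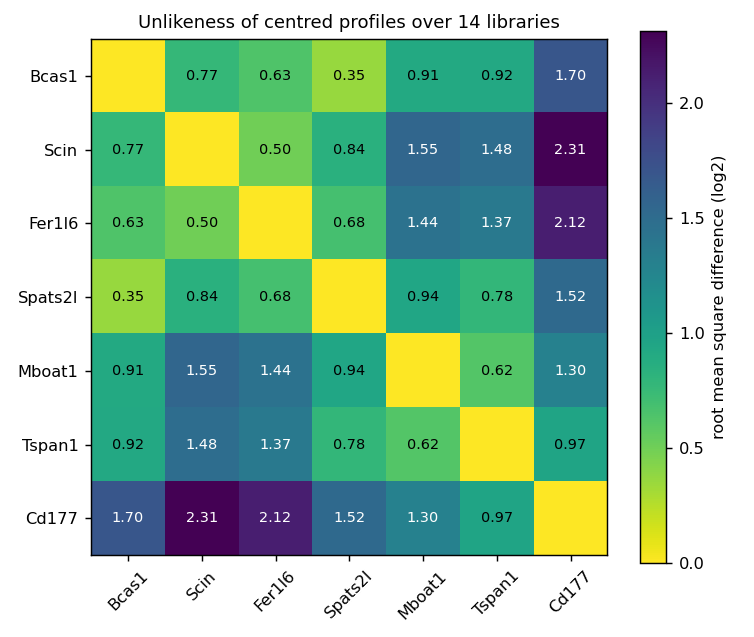
Root mean square difference (log2) between the centred profiles of each pair of genes over 14 libraries; yellow is alike and dark is unlike. Bcas1, Scin, Fer1l6 and Spats2l lie within 0.84 of each other, and Mboat1 and Tspan1 at 0.62. Cd177 is at least 0.97 from every other gene shown. The genes were chosen for ileal excess, which the profiles hold.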

How the data were processed

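Libraries were made with the Illumina TruSeq kit and read as single-end 50-base reads, per the labels' protocols. The authors deposited expected counts per gene, not scaled to depth. Genome mm9 and the tool DESeq, with no version or step, are named in the submitters' processing notes. For the aligner, the counter and the annotation: not given in the sources used here. Gene coordinates in mm9 were not used here, so only the promoters have coordinates.

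Expected counts were rounded, filtered with filterByExpr (minimum count 10, minimum total 15; 14750 genes kept) and fitted with edgeR 4.0.16 (R 4.3.3): TMM scaling, a robust quasi-likelihood model with 6 group means, F-tests with Benjamini-Hochberg adjustment over every tested gene. Called means an adjusted p under 0.05. The SE is the log2 difference over the square root of F; for differences under 0.1, where that ratio is unstable, it came from the model's weights. CPM used effective library sizes. The scripts were tested on simulated counts.

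The 7 genes and the lists (goblet, Paneth, enteroendocrine, tuft, enterocyte, stem cell, neutrophil and myeloid, lymphocyte, stromal, and 7 family or process lists) were chosen with earlier results of these data known. Of the called genes in each list, at most 4 were named, from the highest mean level down. The 3 genes of nearest profile to each of the 7 were named, except a neighbour of Mboat1 that is not reported here. Alternatives were DESeq2 size factors, no filter, DESeq2 1.42.0, limma-voom (limma 3.58.1), a block for replicate number, and each library left out in turn. The deposited log2 values were not used.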

Additional observations from a re-analysis of the deposited data

How the results depend on the processing

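Counts of called genes were 739 (ileum minus jejunum, all populations), 103 (the same in LGR5 cells), 4439 (CD166 minus crypt), 4639 (LGR5 minus crypt), 238 (CD166 minus LGR5) and 0 (regional difference in CD166 minus that in crypt). With 1 library left out they ran from 138 to 1269, 2 to 376, 2769 to 5112, 2421 to 5032, 85 to 295 and 0 to 17, in the same order. The DESeq2 test gave 1410 and 773 for the region differences, 421 for CD166 minus LGR5 and 21 for the last. In LGR5 cells limma-voom gave 30, the replicate block 254, and a block with the jejunal numbers crossed, added after seeing the data, 297. Other settings stayed within 1.5 times. Deviations of same-numbered libraries from their group means had r from -0.52 to 0.42. In groups of 2 libraries these deviations mirror each other, so the check cannot tell whether the numbers pair libraries. The numbers were not taken to pair them.

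Region differences over all populations kept their direction for all 7 genes under every alternative. Cd177 kept its calls in both sorted populations, and Tspan1 its call in CD166 cells, under all 19 alternatives. Scin in LGR5 minus crypt missed the threshold under the block (adjusted p = 0.0512). Uncalled values near 0 changed sign. For CD166 minus LGR5, Bcas1 was 0.0044 without a filter, 0.17 with limma-voom and 0.021 with the block, and -0.35 to 0.65 with 1 library left out; Fer1l6 was 0.086 with limma-voom and -0.60 to 0.65. For LGR5 minus crypt, Mboat1 was -0.37 with the block and -0.15 to 0.37, Bcas1 -0.99 to 0.037 and Spats2l -0.69 to 0.13. For CD166 minus crypt Spats2l was -0.066 to 0.54, and in CD166 cells the region difference of Fer1l6 was -0.76 to 0.037. For the regional difference in CD166 minus that in crypt, Mboat1 was 0.057 with limma-voom, 0.0051 with the block and -1.02 to 0.045, Bcas1 -0.56 to 0.17, Scin -0.17 to 0.74 and Spats2l -0.68 to 0.53. These values have 2 or 3 libraries a group behind them, which limits what can be seen within a population.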

Other observations

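Enteroendocrine genes set the CD166 cells apart from the LGR5 cells: 8 of 12 were called higher in CD166 than in LGR5 cells and 0 lower (edgeR's quasi-likelihood test), or 3 to 9 with 1 library left out (3 without ileum LGR5 1 or either jejunal LGR5 library). Between regions 3 of the 12 rose over all populations, the hormone genes Pyy (4.76 ± 0.58 log2), Nts (3.66 ± 0.58) and Gcg (2.26 ± 0.37), and Tph1, which starts serotonin synthesis, fell (-1.50 ± 0.24).

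Of 9 lymphocyte genes, 8 fell in CD166 and 9 in LGR5 cells relative to crypt cells, and their summed level was at most 40.3 CPM in the 8 sorted libraries, against 114 to 11828 CPM in the 6 crypt libraries. Of 8 stromal genes, 5 fell in CD166 and 6 in LGR5 cells relative to crypt cells. With 1 library left out 0 to 5 fell in CD166 cells, with 0 without jejunum CD166 2, and 1 to 7 in LGR5 cells, with 1 without jejunum LGR5 1. Neither list had a gene called between regions by edgeR.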
